A study of Homo sapiens with 6 samples.

Results

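Integrins, laminins and focal adhesion genes were followed in SNU449, an established human liver cancer cell line. They were taken by gene symbol: every row of the deposited expression table whose symbol marks an integrin alpha or beta gene, a laminin chain, a nidogen, a talin, a kindlin (FERMT), perlecan (HSPG2), agrin (AGRN), a syndecan, or one of VCL, PXN, ILK, PARVA, PTK2, ZYX, LIMS1 and LIMS2. This gave 52 of the 13117 genes in the table. Earlier results of these data were known when the genes were chosen. The cells carried pInducer20-FOXO1AAA, a construct that makes the transcription factor FOXO1AAA when doxycycline is given. The Dox group (n = 3) had 2 µM doxycycline hydrochloride for 48 h, and the Cont group (n = 3) had the same cells and construct with no doxycycline. FOXO1AAA is the usual name of a FOXO1 whose AKT phosphorylation sites are changed to alanine, so that it stays in the nucleus when AKT is active, although the labels do not spell this out. The labels enter the genotype of all 6 samples as WT. Cells without the construct were not analysed here, so an effect of doxycycline itself cannot be told apart from that of FOXO1AAA, and nothing in the labels says whether the cells are 1 clone.

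Integrins are receptors built from an alpha and a beta subunit that hold cells to the extracellular matrix. Laminins, each an alpha, a beta and a gamma chain, are joined by nidogens and perlecan into the basement membrane, and several integrins bind them. Inside the cell, talins and kindlins bind the tails of beta subunits and switch integrins on, and ILK, PINCH proteins (LIMS1 and LIMS2), parvins, paxillin, vinculin, zyxin and focal adhesion kinase link them to actin and to signalling. In liver tumours these genes are known for their part in attachment, spreading and invasion.

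FOXO1 mRNA was at 2.87, 3.50 and 2.01 FPKM in the Dox libraries, against 0.741, 0.776 and 0.889 FPKM in the Cont libraries (log2 change 1.06, SE 0.15, limma adjusted p = 9.84e-05). The sources used here do not say if construct reads fell on this row. FPKM counts fragments scaled by transcript length and library size, so levels of different genes can be compared per length. The deposited values are log2 FPKM, and each log2 change is the Dox mean less the Cont mean after 1 FPKM is added to every value, so that changes of low genes come out too small. Of 11 hepatocyte markers, only ALB and FGA had a row in the deposited table. Their summed levels were 1.05 to 1.78 FPKM in Dox and 2.80 to 3.15 FPKM in Cont, so these 2 genes were low. They went opposite ways, 1 higher and 1 lower in Dox, each with groups that did not overlap. KRT7, KRT8, KRT18 and CDH1, the 4 epithelial markers analysed of a list of 7, summed to 314 to 366 FPKM in Dox and 1120.3 to 1281 FPKM in Cont. Of 10 mesenchymal markers 6 were analysed, and they went both ways: VIM, COL1A1 and COL1A2 fell (-1.64, -1.69 and -2.17 in log2), COL3A1 and ACTA2 rose (4.37 and 0.49) and PDGFRA was not tested (limma adjusted p from 1.52e-09 to 0.013 for those called). Their sums, carried mostly by VIM, were 443 to 549 FPKM in Dox and 1110.5 to 1153 FPKM in Cont. The leukocyte markers CD14 and CORO1A, of a list of 8, summed to 5.61 to 8.34 FPKM in Dox and 6.04 to 7.43 FPKM in Cont, and the endothelial markers PECAM1 and CDH5, of a list of 7, stayed below 1 FPKM in all 6 libraries. A platelet list of 5 gave GP1BA and ITGA2B, with sums of 2.29 to 3.91 FPKM in Dox and 0.867 to 1.61 FPKM in Cont. The part of these marker differences in the results was not tested, and in bulk RNA fewer cells of a kind and less RNA per cell cannot be told apart.

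The adhesion genes did not move as 1 group. The test covered 45 of the 52 genes, those with at least 1 FPKM in at least 3 libraries. Of these, ITGA2B and LAMB4 reached 1 FPKM only in Dox, as did FOXO1, and ITGB6 and ITGB8 only in Cont. These genes passed the filter only through the group in which they were high, and their p-values carry that limit. With no filter the limma adjusted p was 0.000347 for ITGA2B, 1.89e-08 for LAMB4, 6.62e-07 for ITGB6, 0.00105 for ITGB8 and 0.00012 for FOXO1. By limma with an adjusted p under 0.05, 15 of the 45 rose in Dox, 21 fell and 9 did not pass. Over all 11526 tested genes, 80.4% were called, 37.6% higher and 42.8% lower. The 36 adhesion genes called are 80.0% of those tested, a share near the background and no result about these genes as a list. In 38 of the 45 the Dox and Cont values did not overlap, where 82.1% of all tested genes did not. A log2 change of at least 1 was reached by 17 of them (8 higher, 9 lower), or 37.8%, against 32.9% of all tested genes. The median change was -0.23 over the 45 and -0.06 over all tested genes. Scaling moved the balance: in TPM computed without the mitochondrially encoded genes (nuclear TPM), where the median of all tested genes was 0.22, 20 rose and 18 fell among 47 tested. Of all genes called in nuclear TPM 60.2% were higher, against 46.7% in the main setting. Within the families single members went far in opposite directions, and on the log2(FPKM + 1) scale the largest changes were those of NID2, ITGAV, LAMB4, LIMS2, FERMT2 and SDC2 upwards and of ITGA3, SDC4, PXN and FERMT1 downwards. By the ratio of mean FPKM the low genes LAMB4, 218-fold higher, and ITGB6, 14.3-fold lower, came first in their directions among the 45.

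**Figure D1:**
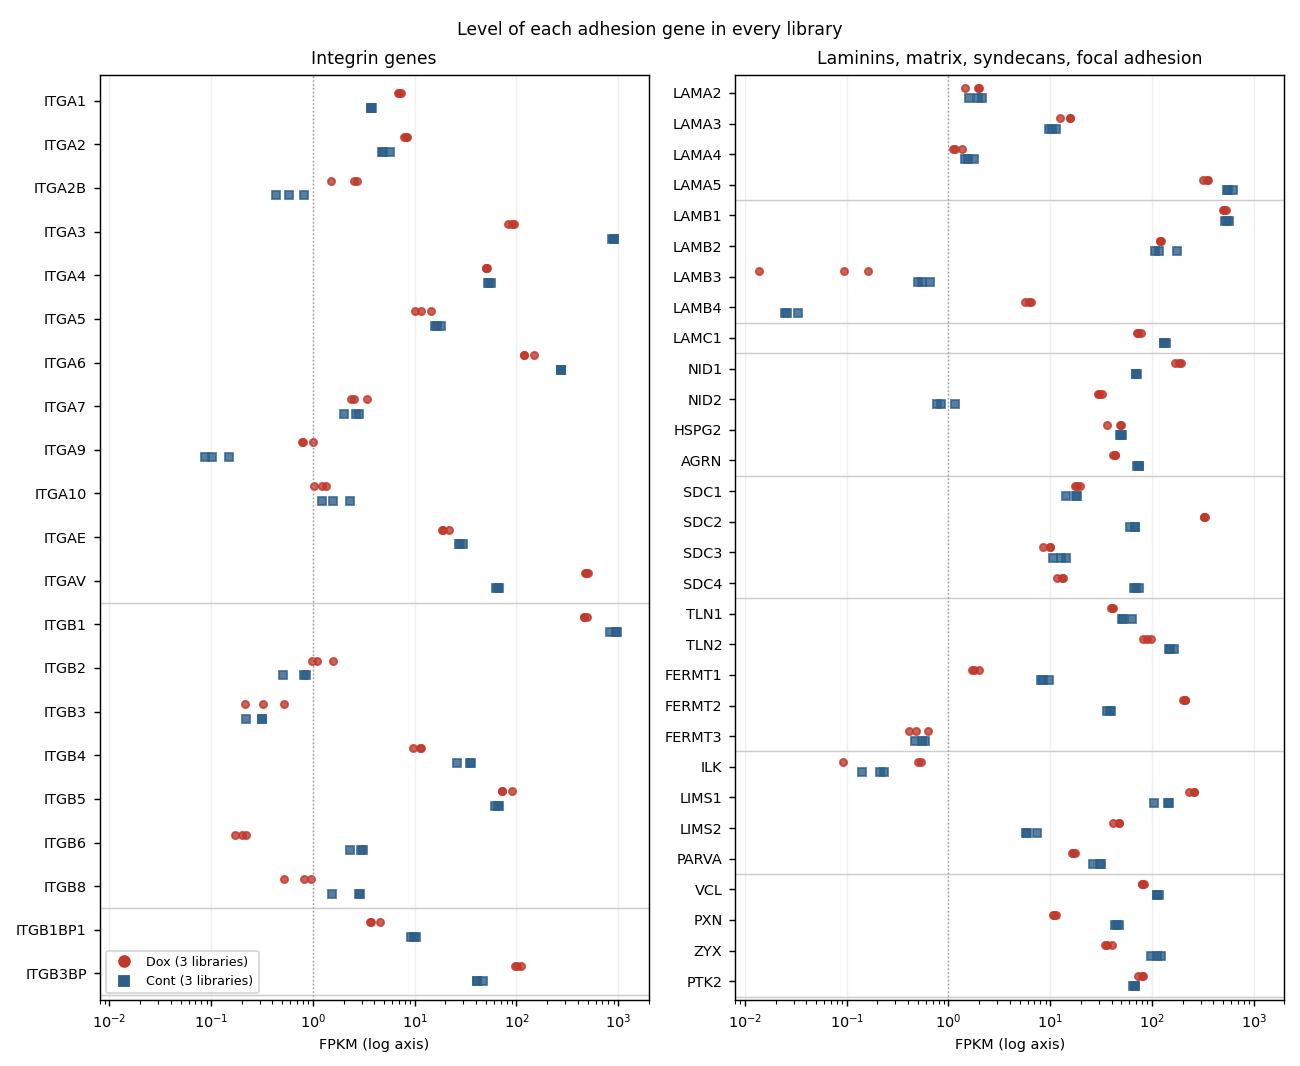
FPKM on a log axis of 51 of the 52 adhesion genes in the 3 Dox libraries (red circles) and the 3 Cont libraries (blue squares), grouped by role, with a dotted line at 1 FPKM. The Dox points of ITGAV, SDC2, FERMT2, LIMS2, NID2 and LAMB4 lie well above their Cont points, those of ITGA3, SDC4 and PXN well below, and those of LAMB1 and ITGA4 close to them.

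Among the 12 integrin alpha genes, 4 rose, 4 fell, 3 did not pass and 1 was not tested. ITGA3, whose product pairs with that of ITGB1 into a laminin receptor, fell most: it was at 90.2, 82.8 and 94.8 FPKM in the Dox libraries, against 904, 915 and 859 FPKM in the Cont libraries. Every Dox library was far below every Cont library, 10.0-fold lower by the means (log2 change -3.31, SE 0.07, limma adjusted p = 7.56e-10). ITGA6, the other main laminin-binding alpha subunit of epithelial cells, was at 119, 118 and 150.1 FPKM in the Dox libraries, against 274, 271 and 275 FPKM in the Cont libraries, and was 2.12-fold lower (log2 change -1.09, SE 0.09, limma adjusted p = 2.65e-06). ITGAV went the other way. Its product joins several beta subunits into receptors of vitronectin, fibronectin and latent TGF-beta, and it stood at 487, 499 and 467 FPKM in the Dox libraries, against 66.2, 68.0 and 62.3 FPKM in the Cont libraries. The groups lay far apart, 7.39-fold higher in Dox (log2 change 2.87, SE 0.06, limma adjusted p = 9.74e-10). ITGA7, a laminin receptor subunit best known from muscle, was low, at 3.36, 2.53 and 2.35 FPKM in the Dox libraries, against 2.01, 2.82 and 2.64 FPKM in the Cont libraries, with overlapping groups (95% interval -0.21 to 0.41, limma adjusted p = 0.513).

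The collagen receptor subunit genes were low and did not follow ITGA3. ITGA1 was 1.90-fold higher, with 7.11 ± 0.247 FPKM in Dox and 3.74 ± 0.0458 FPKM in Cont (SD, n = 3 each), and ITGA2 was 1.60-fold higher, with 8.16 ± 0.313 FPKM in Dox and 5.11 ± 0.551 FPKM in Cont (SD, n = 3 each). Both rose (0.77 and 0.59 in log2, limma adjusted p = 1.4e-05 and 0.000244). ITGA10 had 1.2 ± 0.164 FPKM in Dox and 1.70 ± 0.545 FPKM in Cont (SD, n = 3 each) and overlapping groups (limma adjusted p = 0.115). The fibronectin receptor gene ITGA5 fell to 11.5, 10.1 and 14.3 FPKM in the Dox libraries, against 16.0, 16.4 and 18.1 FPKM in the Cont libraries (log2 change -0.47, SE 0.12, limma adjusted p = 0.00416), but in nuclear TPM this was -0.22 and did not pass (limma adjusted p = 0.141). ITGA4, whose product binds fibronectin and VCAM1, did not pass, although its groups were just apart, at 51.0, 50.2 and 49.9 FPKM in the Dox libraries, against 53.4, 56.1 and 52.9 FPKM in the Cont libraries (95% interval -0.24 to 0.04). Its sign depended on scaling, at -0.10 here and 0.18 in nuclear TPM, where it passed as a rise (limma adjusted p = 0.0183).

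Subunits typical of blood cells were at low or middle levels. ITGAE, known from T cells that bind E-cadherin, was at 18.6, 21.6 and 18.9 FPKM in the Dox libraries, against 28.0, 30.1 and 27.0 FPKM in the Cont libraries, and fell by 0.51 in log2 (limma adjusted p = 0.000254). Its annotated exons overlap HASPIN on the opposite strand over 6.41% of their bases. ITGA2B, the platelet fibrinogen receptor subunit, rose, with 2.55, 2.69 and 1.51 FPKM in the Dox libraries, against 0.438, 0.582 and 0.812 FPKM in the Cont libraries (log2 change 1.00, SE 0.17, limma adjusted p = 0.00031). ITGA9, a receptor subunit for tenascin C and VCAM1, missed the filter with 1.01, 0.783 and 0.807 FPKM in the Dox libraries, against 0.0861, 0.151 and 0.102 FPKM in the Cont libraries. The groups of ITGA9 did not overlap, and without a filter its log2 change was 0.74 (limma adjusted p = 3.07e-05), on roughly 17.7 to 47.2 estimated reads per Cont library.

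Of the 7 integrin beta genes, 1 rose, 4 fell and 2 were not tested. ITGB1, the partner shared by most of the alpha subunits above, was at 457, 462 and 488 FPKM in the Dox libraries, against 952, 970.1 and 826 FPKM in the Cont libraries. It was 1.95-fold lower (log2 change -0.96, SE 0.08, limma adjusted p = 1.92e-06), and was by far the most abundant beta subunit gene in every library. ITGB4, the hemidesmosome subunit that pairs with the ITGA6 product, was at 11.4, 11.2 and 9.53 FPKM in the Dox libraries, against 35.5, 35.3 and 26.1 FPKM in the Cont libraries, 3.01-fold lower (log2 change -1.50, SE 0.12, limma adjusted p = 1.93e-06). ITGB6 and ITGB8, both partners of the ITGAV product in binding latent TGF-beta, fell while ITGAV rose. ITGB6 was at 0.218, 0.199 and 0.170 FPKM in the Dox libraries, against 2.98, 3.11 and 2.32 FPKM in the Cont libraries, 14.3-fold lower (limma adjusted p = 7.43e-07), and its log2 change of -1.66 understates this, since the deposited log2 values differed by -3.84. ITGB8 was at 0.966, 0.820 and 0.520 FPKM in the Dox libraries, against 2.87, 2.82 and 1.53 FPKM in the Cont libraries, 3.13-fold lower (log2 change -0.93, SE 0.18, limma adjusted p = 0.000877).

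ITGB5, a further ITGAV partner and vitronectin receptor subunit, was at 71.4, 72.2 and 90.0 FPKM in the Dox libraries, against 67.7, 66.3 and 62.0 FPKM in the Cont libraries. The groups were just apart and the log2 change was 0.24 (SE 0.09, limma adjusted p = 0.0371). This call ended without Dox replicate 3, the highest library (0.13, limma adjusted p = 0.096), and without Cont replicate 1, 2 or 3 (0.27, 0.25 and 0.21, limma adjusted p = 0.0529, 0.0672 and 0.0992). ITGB2, the leukocyte beta subunit, and ITGB3, the platelet one, were not tested. ITGB2 was at 1.57, 0.968 and 1.11 FPKM in the Dox libraries, against 0.855, 0.819 and 0.513 FPKM in the Cont libraries, with the groups apart, and without a filter its log2 change was 0.35 (limma adjusted p = 0.0294). ITGB3 was at 0.217, 0.517 and 0.321 FPKM in the Dox libraries, against 0.318, 0.313 and 0.218 FPKM in the Cont libraries, with overlapping groups, and AC068234.1 shares 51.6% of its annotated exonic bases on the same strand.

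Set against their own families, these values exchanged the leading alpha subunit. ITGA3 made up 11.1 ± 0.687% in Dox and 66.4 ± 0.670% in Cont (SD, n = 3 each) of the summed FPKM of the 12 alpha genes, a difference of -55.3 percentage points (exact permutation test over samples, two-sided, p = 0.1, the smallest that 3 against 3 allows). ITGAV had 60.0 ± 2.52% in Dox and 4.87 ± 0.105% in Cont (SD, n = 3 each). ITGA6 took 16.0 ± 2.13% in Dox and 20.3 ± 0.601% in Cont (SD, n = 3 each). The order in Dox was thus ITGAV, ITGA6, ITGA3 and ITGA4, and in Cont ITGA3, ITGA6, ITGAV and ITGA4, and the ranges of neighbours in these orders did not overlap within a group. The summed alpha level was 806 ± 7.96 FPKM in Dox and 1344 ± 31.1 FPKM in Cont, and the summed beta level 560.2 ± 25.7 FPKM in Dox and 1019.9 ± 88.0 FPKM in Cont (SD, n = 3 each). ITGB1 held 83.8 ± 0.861% in Dox and 89.8 ± 0.170% in Cont (SD, n = 3 each) of the beta sum (exact permutation p = 0.1, two-sided), and ITGB5 held 13.9 ± 1.21% in Dox and 6.42 ± 0.304% in Cont (SD, n = 3 each).

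**Figure D2:**
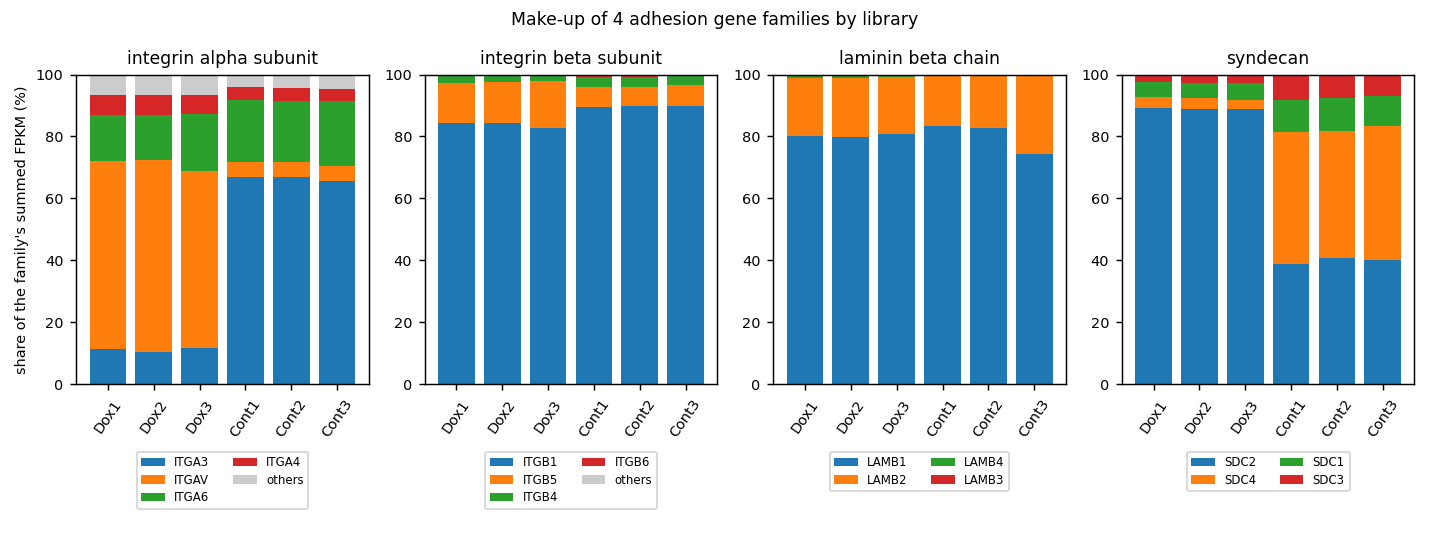
Share of a family's summed FPKM, in percent, held by the genes with the largest shares in every library, Dox libraries left and Cont libraries right, for integrin alpha subunits, integrin beta subunits, laminin beta chains and syndecans. The remaining alpha and beta subunit genes are drawn together in grey as others. ITGAV fills most of the alpha bar in Dox and ITGA3 in Cont, SDC2 fills the syndecan bar in Dox and shares it with SDC4 in Cont, and ITGB1 fills 83.8% of the beta subunit bar in Dox and 89.8% in Cont.

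Symbols that begin like an integrin also name 2 genes of other proteins. ITGB1BP1, whose product binds the tail of the ITGB1 subunit and holds the integrin inactive, was at 3.74, 3.63 and 4.52 FPKM in the Dox libraries, against 10.4, 9.94 and 9.28 FPKM in the Cont libraries, 2.49-fold lower (log2 change -1.13, SE 0.10, limma adjusted p = 2.75e-06). It shares 33.1% of its annotated exonic bases with ASAP2 on the opposite strand, a gene at 1.5, 1.92 and 2.16 FPKM in the Dox libraries, against 5.60, 5.92 and 6.35 FPKM in the Cont libraries. Without knowledge of strand in the counting, reads of that stretch cannot be told apart. ITGB3BP, which encodes a centromere protein, was at 96.8, 101 and 109.6 FPKM in the Dox libraries, against 40.7, 46.8 and 41.3 FPKM in the Cont libraries, 2.39-fold higher (log2 change 1.24, SE 0.08, limma adjusted p = 2.93e-07).

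Among laminin chains LAMA5 and LAMC1 fell, LAMB1 and LAMB2 did not pass, and LAMB4 and LAMA3 rose. LAMA5, the alpha chain of the most widespread epithelial laminins, was at 346, 357 and 317 FPKM in the Dox libraries, against 543, 553 and 621 FPKM in the Cont libraries (1.69-fold lower, log2 change -0.75, SE 0.08, limma adjusted p = 1.08e-05). LAMC1, the common gamma chain, was at 72.3, 71.7 and 77.4 FPKM in the Dox libraries, against 132, 133 and 138 FPKM in the Cont libraries (1.82-fold lower, log2 change -0.85, SE 0.06, limma adjusted p = 8.36e-07). Both were lower in every Dox library than in any Cont library. Their beta partner LAMB1 did not pass, at 506, 499 and 533 FPKM in the Dox libraries, against 542, 567 and 516 FPKM in the Cont libraries (95% interval -0.23 to 0.07, limma adjusted p = 0.304). The sign of LAMB1 depended on scaling, from -0.08 here to 0.20 in nuclear TPM and 0.35 under quantile normalization, both of which passed as a rise (limma adjusted p = 0.0071 and 0.000316). LAMB2, a beta chain of vessel, muscle and kidney laminins, was at 119.5, 119.8 and 122 FPKM in the Dox libraries, against 108, 117 and 176 FPKM in the Cont libraries, with Cont replicate 3 high and the groups overlapping. Its change of -0.12 (95% interval -0.46 to 0.23) was 0.10 without that library, and neither passed.

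LAMB4, a beta chain gene about which little is known, was at 6.23, 6.53 and 5.59 FPKM in the Dox libraries, against 0.0335, 0.0259 and 0.0246 FPKM in the Cont libraries. The Cont values stand for about 3 to 4 reads per library, estimated from the smallest steps of the table, on top of an offset read from those steps, so the ratio of the means, 218-fold, rests on a base that is hardly measured. The Dox values stand for an estimated 1025 to 1719 reads, and the rise was 2.79 in log2 (SE 0.10, limma adjusted p = 9.52e-09). LAMB4 held 0.959 ± 0.10% of the laminin beta sum in Dox and 0.00417 ± 0.000867% in Cont (SD, n = 3 each), while LAMB1 held 80.2 ± 0.469% in Dox and 80.2 ± 4.96% in Cont (SD, n = 3 each). LAMB4 (chromosome 7, 108023548 to 108130356) lies upstream of LAMB1 (chromosome 7, 107923799 to 108003255) on the same strand, in GENCODE release 29 on GRCh38.

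LAMA3 and LAMB3 encode the alpha and beta chains of the laminin of epithelial hemidesmosomes, a ligand of the ITGA3 and ITGA6 receptors. LAMA3 rose, with 15.6, 15.8 and 12.5 FPKM in the Dox libraries, against 10.4, 9.62 and 11.4 FPKM in the Cont libraries (log2 change 0.44, SE 0.11, limma adjusted p = 0.00317). Its beta partner was almost silent and not tested. LAMB3 was at 0.0139, 0.163 and 0.0933 FPKM in the Dox libraries, against 0.496, 0.547 and 0.662 FPKM in the Cont libraries, with the groups apart, and without a filter its log2 change was -0.53 (limma adjusted p = 0.000397). These values rest on roughly 0.19, 21.6 and 10.9 estimated reads in the Dox libraries and 59.1 to 95.6 in the Cont libraries. The LAMB3 share given next rests on the same few reads. LAMB3 took 0.0141 ± 0.0119% in Dox and 0.0839 ± 0.0102% in Cont (SD, n = 3 each) of the laminin beta sum (exact permutation p = 0.1, two-sided). LAMA2 and LAMA4, alpha chains of muscle and vessel laminins, were low. LAMA2 was at 1.95, 2.01 and 1.45 FPKM in the Dox libraries, against 1.96, 2.14 and 1.59 FPKM in the Cont libraries (95% interval -0.33 to 0.24), and LAMA4 at 1.12, 1.34 and 1.15 FPKM in the Dox libraries, against 1.78, 1.45 and 1.54 FPKM in the Cont libraries (95% interval -0.48 to 0.02). Neither passed, although the LAMA4 groups did not overlap, and both fell under quantile normalization (-0.34 and -0.56, limma adjusted p = 0.0309 and 0.00104). LAMA4 also passed with no filter and with no mean-variance trend, each at -0.23 (limma adjusted p = 0.047 and 0.0296).

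Promoter windows from RefSeq (GRCh38.p14, 250 bases before to 50 after a gene's start) were searched for the FOXO binding element, since the construct encodes a FOXO factor. Of the 52 adhesion genes, 40 had a window. GTAAACA, or TGTTTAC on the other strand, was in none of these 40 and in 3.47% of all 10543 table genes with a window. The shorter core TAAACA, or TGTTTA on the other strand, which lies inside the full element, was in 6 of the 40 (ITGA6, ITGB1, ITGB6, LAMB3, LAMB4 and SDC1), or 7 of 57 windows, and in 10.4% of the 10543 genes. Of these 6, LAMB4 rose, ITGA6, ITGB1 and ITGB6 fell, SDC1 did not pass and LAMB3 was not tested. The core was searched after the values were known. A match describes letters only. A gene can have more than 1 annotated start and window, and the ITGB1 match lies in the window of a start inside the gene, not in that of its outermost RefSeq start. The windows of LAMB4, ITGA6 and ITGB6, which changed and whose matches lie before their outermost RefSeq start, are given 5′ to 3′ along the gene, with the core in capitals. In GENCODE release 29 ITGB6 starts further out, at 160200313 on the minus strand, so its match lies inside the gene there. The LAMB4 window (chr7:108130312-108130611, minus strand) has it ending 164 bases before the start, that of ITGA6 (chr2:172427086-172427385, plus strand) 135 bases and that of ITGB6 (chr2:160200223-160200522, minus strand) 11 bases.
LAMB4 promoter: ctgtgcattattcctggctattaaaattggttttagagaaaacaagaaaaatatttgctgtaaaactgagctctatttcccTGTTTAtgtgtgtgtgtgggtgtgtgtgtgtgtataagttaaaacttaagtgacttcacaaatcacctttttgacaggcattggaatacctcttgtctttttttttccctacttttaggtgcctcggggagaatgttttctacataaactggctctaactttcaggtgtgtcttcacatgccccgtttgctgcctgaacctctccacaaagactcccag
ITGA6 promoter: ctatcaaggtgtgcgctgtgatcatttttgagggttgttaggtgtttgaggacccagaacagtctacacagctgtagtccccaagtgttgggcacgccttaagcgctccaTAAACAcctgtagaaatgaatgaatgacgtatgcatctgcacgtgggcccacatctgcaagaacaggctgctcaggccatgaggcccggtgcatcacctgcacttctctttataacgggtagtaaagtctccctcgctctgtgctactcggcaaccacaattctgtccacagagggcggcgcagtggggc
ITGB6 promoter: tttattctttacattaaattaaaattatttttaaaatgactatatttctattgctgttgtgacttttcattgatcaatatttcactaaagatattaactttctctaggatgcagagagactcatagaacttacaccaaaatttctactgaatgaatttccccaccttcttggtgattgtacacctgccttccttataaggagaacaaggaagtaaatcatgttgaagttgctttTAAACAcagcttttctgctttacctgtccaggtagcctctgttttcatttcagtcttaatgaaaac

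The nidogens, which bridge the laminin and type IV collagen networks, both rose. NID2 had the largest log2 change of the 45 tested adhesion genes, with 30.0, 32.0 and 29.4 FPKM in the Dox libraries, against 0.771, 0.842 and 1.15 FPKM in the Cont libraries. Its ratio of means was 33.1-fold (log2 change 4.04, SE 0.10, limma adjusted p = 1.37e-09). RTRAF, on the opposite strand, shares 30.0% of the annotated exonic bases of NID2 (chromosome 14, 52004803 to 52069228). It was at 8.77, 9.27 and 8.67 FPKM in the Dox libraries, against 11.4, 11.4 and 11.2 FPKM in the Cont libraries. Reads of the shared stretch cannot be told apart without the strand setting, and their part in the NID2 values was not tested. NID1 was at 185, 191 and 167 FPKM in the Dox libraries, against 70.2, 70.5 and 69.3 FPKM in the Cont libraries, 2.59-fold higher (log2 change 1.36, SE 0.07, limma adjusted p = 6.19e-08). NID1 lay above NID2 in every library of both groups. Agrin, the proteoglycan gene AGRN, was lower, at 41.4, 43.7 and 43.0 FPKM in the Dox libraries, against 74.9, 74.2 and 70.6 FPKM in the Cont libraries (log2 change -0.76, SE 0.06, limma adjusted p = 1.86e-06). Perlecan, HSPG2, was at 49.3, 48.8 and 36.4 FPKM in the Dox libraries, against 49.3, 51.2 and 48.8 FPKM in the Cont libraries. The HSPG2 groups overlapped, with Dox replicate 3 low, and the change of -0.16 (95% interval -0.41 to 0.09) did not pass.

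Syndecans, transmembrane heparan sulfate proteoglycans that act beside integrins, moved apart: SDC2 rose, SDC4 and SDC3 fell and SDC1 did not pass. SDC2, the form of mesenchymal and liver cells, was at 329.9, 321 and 326 FPKM in the Dox libraries, against 67.4, 68.8 and 61.2 FPKM in the Cont libraries, 4.95-fold higher (log2 change 2.29, SE 0.07, limma adjusted p = 2.49e-09). SDC4, the form found in focal adhesions, was at 13.3, 13.0 and 11.8 FPKM in the Dox libraries, against 74.3, 69.0 and 66.3 FPKM in the Cont libraries, 5.51-fold lower (log2 change -2.37, SE 0.08, limma adjusted p = 4.18e-09). SDC2 and SDC4 were near equal in Cont, where their ranges overlapped, and in Dox they were far apart. As shares of the summed syndecan FPKM, SDC2 held 88.9 ± 0.205% in Dox and 39.9 ± 1.10% in Cont (SD, n = 3 each). SDC4 held 3.46 ± 0.218% in Dox and 42.3 ± 1.24% in Cont (SD, n = 3 each). SDC3 fell to 8.57, 9.91 and 9.91 FPKM in the Dox libraries, against 14.2, 12.9 and 10.7 FPKM in the Cont libraries (log2 change -0.37, SE 0.11, limma adjusted p = 0.0102), which did not pass in nuclear TPM (-0.12, limma adjusted p = 0.326). SDC1, the epithelial form, was at 18.4, 17.6 and 19.7 FPKM in the Dox libraries, against 18.4, 17.7 and 14.4 FPKM in the Cont libraries, with overlapping groups (95% interval -0.08 to 0.36), and passed only as a rise in TPM, in nuclear TPM and under quantile normalization (0.25, 0.41 and 0.25, limma adjusted p from 0.00213 to 0.0332).

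The activators of integrins moved in opposite directions. FERMT2, the kindlin of most adherent cells, was at 211, 213 and 204 FPKM in the Dox libraries, against 39.5, 38.6 and 36.1 FPKM in the Cont libraries, 5.50-fold higher (log2 change 2.43, SE 0.06, limma adjusted p = 1.67e-09). FERMT1, the epithelial kindlin, was at 1.77, 1.99 and 1.70 FPKM in the Dox libraries, against 9.74, 8.50 and 8.19 FPKM in the Cont libraries, 4.84-fold lower (log2 change -1.80, SE 0.10, limma adjusted p = 1.16e-07). FERMT3, the kindlin of blood cells, was not tested, with 0.477, 0.412 and 0.626 FPKM in the Dox libraries, against 0.545, 0.582 and 0.467 FPKM in the Cont libraries, and its groups overlapped. Both talin genes fell, by less. TLN2 was at 98.1, 89.0 and 80.9 FPKM in the Dox libraries, against 148, 150.4 and 165 FPKM in the Cont libraries (log2 change -0.79, SE 0.08, limma adjusted p = 1.18e-05). TLN1 was at 40.4, 40.0 and 41.0 FPKM in the Dox libraries, against 51.5, 51.0 and 64.1 FPKM in the Cont libraries (log2 change -0.44, SE 0.09, limma adjusted p = 0.00136), with Cont replicate 3 high, and did not pass in nuclear TPM (-0.17, limma adjusted p = 0.168). TLN2 stood above TLN1 in every library.

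In the complex of ILK, PINCH and parvin, both PINCH genes rose and the parvin gene fell. LIMS2 was at 41.3, 47.3 and 47.2 FPKM in the Dox libraries, against 7.36, 5.97 and 5.75 FPKM in the Cont libraries, 7.12-fold higher (log2 change 2.66, SE 0.10, limma adjusted p = 1.04e-08). LIMS1 was at 259.8, 258 and 232 FPKM in the Dox libraries, against 148, 143 and 105 FPKM in the Cont libraries, 1.89-fold higher (log2 change 0.93, SE 0.12, limma adjusted p = 5.67e-05). LIMS1 was the more abundant of these paralogs in every library, and the sources used here do not say how reads that match both would be assigned. PARVA, the alpha-parvin gene, was at 17.4, 16.9 and 16.4 FPKM in the Dox libraries, against 30.7, 31.3 and 26.5 FPKM in the Cont libraries (log2 change -0.76, SE 0.08, limma adjusted p = 1.29e-05). ILK was not tested, with 0.0919, 0.507 and 0.539 FPKM in the Dox libraries, against 0.212, 0.141 and 0.233 FPKM in the Cont libraries and overlapping groups. On the opposite strand TAF10 shares 68.1% of the annotated exonic bases of ILK, so that reads of both cannot be told apart without the strand setting. TAF10 was low as well, at 1.29, 1.48 and 0.844 FPKM in the Dox libraries, against 0.853, 0.760 and 0.783 FPKM in the Cont libraries. The ILK values rest on roughly 6.37 to 33.3 estimated reads per library and may not show how much ILK mRNA the cells held.

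Of the other focal adhesion genes, 3 fell and 1 rose. PXN, the scaffold paxillin, was at 11.3, 10.6 and 10.8 FPKM in the Dox libraries, against 47.0, 43.3 and 45.1 FPKM in the Cont libraries, 4.13-fold lower (log2 change -1.95, SE 0.07, limma adjusted p = 7.47e-09). ZYX, zyxin, which gathers on actin fibres under tension, was at 36.2, 34.7 and 40.4 FPKM in the Dox libraries, against 123, 111 and 98.8 FPKM in the Cont libraries, 2.99-fold lower (log2 change -1.55, SE 0.09, limma adjusted p = 1.83e-07). VCL, vinculin, which ties talin to actin, fell less, with 80.4, 83.3 and 79.8 FPKM in the Dox libraries, against 111, 112 and 116 FPKM in the Cont libraries (log2 change -0.47, SE 0.06, limma adjusted p = 4.65e-05). PTK2, the gene of focal adhesion kinase, was at 72.8, 79.6 and 81.5 FPKM in the Dox libraries, against 68.1, 67.8 and 65.0 FPKM in the Cont libraries. The groups were just apart (log2 change 0.21, SE 0.07, limma adjusted p = 0.0142), and without Dox replicate 2 the log2 change of 0.20 no longer passed (limma adjusted p = 0.0553). Annotated genes overlap further exons of the adhesion genes: AC092153.1 on the same strand over 20.6% of the exonic bases of ITGB6, and on the opposite strand PXN-AS1 over 12.3% of PXN, LDLRAD2 over 11.7% of HSPG2 and AP3M1 over 11.1% of VCL.

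**Figure D3:**
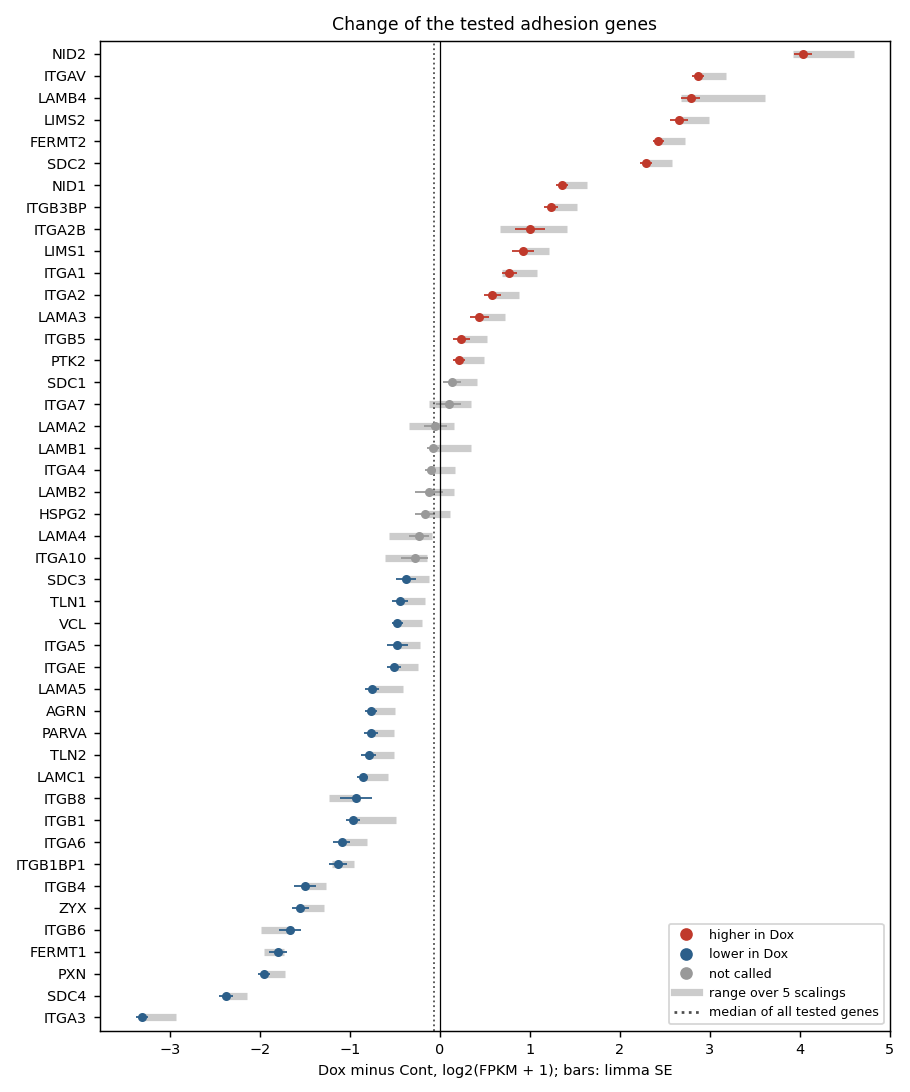
Dox minus Cont difference on the log2(FPKM + 1) scale for the 45 tested adhesion genes in order of size, with limma's SE as thin bars and, as grey bands, the range over FPKM, TPM, nuclear TPM (without mitochondrially encoded genes), median-of-ratios scaling and quantile normalization. The bands of NID2, ITGAV, LAMB4, LIMS2, FERMT2, SDC2, ITGA3, SDC4 and PXN stay far from 0, whereas those of ITGA4, ITGA7, LAMA2, LAMB1, LAMB2 and HSPG2 cross it.

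Further genes of the same machinery were read from lists chosen with earlier results of these data known. Of 48 tested adaptors and kinases of cell-matrix adhesion, 30 fell, 15 rose and 3 did not pass, with a median log2 change of -0.65, against -0.06 over all tested genes, of which 42.8% fell and 37.6% rose. TNS3, a tensin that binds beta subunit tails, was at 10.1, 11.7 and 17.2 FPKM in the Dox libraries, against 139, 134 and 122 FPKM in the Cont libraries (-3.27 in log2). TRIP6, a LIM protein related to zyxin, was at 20.4, 21.0 and 28.1 FPKM in the Dox libraries, against 128, 126 and 118 FPKM in the Cont libraries (-2.39), and CAV1, the caveolin gene, at 105, 101 and 126 FPKM in the Dox libraries, against 514, 516 and 487 FPKM in the Cont libraries (-2.19). PPFIA1, the liprin alpha gene, which takes part in adhesion turnover, rose, with 48.9, 50.2 and 48.3 FPKM in the Dox libraries, against 11.8, 12.7 and 13.8 FPKM in the Cont libraries (1.87). The groups of these 4 genes did not overlap and each passed (limma adjusted p from 1.43e-08 to 4.08e-08).

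A list of hemidesmosome genes and keratins, without integrins and laminins, had 4 tested genes. DST rose, with 73.5 ± 5.98 FPKM in Dox and 30.5 ± 3.63 FPKM in Cont (SD, n = 3 each). PLEC, KRT18 and KRT8 fell, by 1.35, 2.43 and 1.45 in log2. For DST, PLEC, KRT18 and KRT8 the limma adjusted p was 1.16e-06, 1.16e-05, 5.62e-08 and 4.97e-08. Of all tested genes 37.6% rose and 42.8% fell. KRT18 and KRT8 were also counted among the epithelial markers above, so their falls are no separate result.

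Outside the cell the directions were mixed. Of 16 tested integrin ligands other than laminins and collagens, 8 rose, 6 fell and 2 did not pass (median log2 change 0.41), where 37.6% of all tested genes rose and 42.8% fell. In nuclear TPM, where the filter was applied anew to a list of 18 ligands with a row, 12 rose and 6 fell. Of all 12078 genes tested in that setting, 5837 rose and 3855 fell. FBLN5, an elastic fibre protein, rose, with 13.2, 11.4 and 15.1 FPKM in the Dox libraries, against 2.14, 1.42 and 2.52 FPKM in the Cont libraries (2.24, limma adjusted p = 4.24e-07). TGFBI, a matrix protein raised by TGF-beta, was at 41.6, 44.1 and 49.3 FPKM in the Dox libraries, against 221, 230.1 and 181 FPKM in the Cont libraries (-2.20, limma adjusted p = 3.22e-08). The thrombospondin gene THBS1 fell by 3.54 in log2 (limma adjusted p = 1.67e-09). Of 13 tested basement membrane genes outside the laminins, nidogens, HSPG2 and AGRN, 7 rose, 5 fell and 1 did not pass. In nuclear TPM 9 rose and 4 fell, where 60.2% of all genes called were higher, against 46.7% in the main setting. EFEMP2, a fibulin, was at 12.6, 13.9 and 12.4 FPKM in the Dox libraries, against 0.621, 0.280 and 1.57 FPKM in the Cont libraries (3.00, limma adjusted p = 6.55e-07). HMCN1, hemicentin, rose, with 5.74, 6.17 and 4.92 FPKM in the Dox libraries, against 0.833, 0.958 and 1.09 FPKM in the Cont libraries (1.75, limma adjusted p = 2.93e-07). TINAGL1 fell, with 5.60, 5.25 and 4.98 FPKM in the Dox libraries, against 54.9, 56.3 and 34.1 FPKM in the Cont libraries (-2.94, limma adjusted p = 1.29e-07), and again Cont replicate 3 stood apart from the other Cont libraries.

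At the cell surface, 11 of 19 tested laminin receptors, integrin partners and proteoglycans fell, 6 rose and 2 did not pass (median log2 change -0.41), beside 42.8% lower and 37.6% higher of all tested genes, whose median was -0.06. Without Dox replicate 1 or Dox replicate 2, 3 rose, and under quantile normalization 7 fell. The filter of 1 FPKM in 3 libraries was applied again each time a library was left out. CD36 and SGCB, below 1 FPKM in every Cont library, were therefore not tested without a Dox library, and a lower count is partly a loss of tested genes. SLC3A2, the heavy chain that associates with beta 1 integrins and amino acid carriers, fell, with 28.2, 24.4 and 26.7 FPKM in the Dox libraries, against 143, 157 and 124 FPKM in the Cont libraries (-2.37, limma adjusted p = 1.31e-08). CD36, a thrombospondin receptor, rose, and was low in both groups, with 9.79, 11.7 and 8.75 FPKM in the Dox libraries, against 0.0384, 0.0439 and 0.0985 FPKM in the Cont libraries (3.38, limma adjusted p = 6.65e-09). SGCB, a sarcoglycan of the dystroglycan complex, had 0 reads in every Cont library and 3.89, 3.62 and 3.57 FPKM in the Dox libraries, at least 109-fold higher against 3 reads per Cont library, a limit that covers counting error only.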

How the data were processed

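Poly(A)-captured RNA of 6 samples was measured by sequencing. The authors deposited 1 table of log2 FPKM values for 13117 gene symbols, running from -8.59 to 13.9. Per the submitters' processing notes FastQC 0.11.7 and the build GRCh38 were used, while aligner, counter, annotation, strand setting and gene filters are not given in the sources used here. Columns were matched by title, because the description of Cont replicate 1 names the column of Cont replicate 2. Whether libraries of a group are separate cultures is not stated, so the p-values cover only differences among these libraries, perhaps technical ones.

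FPKM was taken as 2 to the power of the deposited value. The main test was limma 3.58.1 (R 4.3.3), moderated with a trend, on log2(FPKM + 1) of the 11526 genes that reached 1 FPKM in 3 or more libraries, two-sided, with Benjamini-Hochberg adjustment over all of them. It was tested on simulated data in which few genes changed. In these data 80.4% of the tested genes were called, so the simulation does not show how the test behaves here. TPM was rescaled from FPKM. Depth is not given. In 307 genes 2 or more libraries shared a lowest value, taken as 0 reads. In these genes the values above it and up to 20 reads, 30 to 92 per library, were whole numbers to within 0.05 reads, which gave relative depths of 0.790 (Cont replicate 1) to 1.31 (Dox replicate 1) times the mean. Read numbers for other genes assume the longest GENCODE release 29 transcript and are rough. Coordinates come from that release, and all 52 genes matched 1 entry. Genes and lists were chosen with earlier results of these data known. Results on 1 adhesion gene and 1 list are not reported here. Every other adhesion gene is described, with up to 3 genes of each list by size of change and 1 in the other direction. Alternatives were other pseudocounts, filters and scalings, no trend, the replicate block and leaving out each library.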

Additional observations from a re-analysis of the deposited data

How the results depend on the processing

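Of the 36 adhesion genes called, 31 kept their direction and passed the threshold under all alternatives in which they could be tested. The others were ITGA5, ITGB5, SDC3, TLN1 and PTK2. ITGB5 also missed the threshold with no mean-variance trend and with the replicate number as a block (limma adjusted p = 0.0563 and 0.0575). Same-numbered libraries did not deviate together (correlations -0.00483 to 0.0793), so the numbers were not taken as pairs. With the replicate block 9272 genes changed in all, 14 adhesion genes rose and 21 fell. Leaving out 1 library gave 12 to 14 rises and 19 to 21 falls among 43 tested, since the filter was applied again. LAMB4 and ITGA2B were then not tested without a Dox library, nor ITGB6 and ITGB8 without a Cont library. Signs turned among genes that had not passed: ITGA4 (0.0119, 0.18 and 0.0705 in TPM, nuclear TPM and quantile normalization, of which the value in nuclear TPM passed), LAMA2 (0.0289 and 0.16 in the TPM settings), LAMB1 (0.0368, 0.20 and 0.35, of which only the first did not pass), LAMB2 (0.16 and 0.13 in nuclear TPM and quantile normalization), HSPG2 (0.11 and 0.00993) and ITGA7 (-0.12 under quantile normalization). Without 1 library, ITGA7 turned to -0.0145 (Dox replicate 1) and -0.00168 (Cont replicate 1), LAMA2 to 0.0455 (Dox replicate 3) and 0.0104 (Cont replicate 2), and LAMB2 to 0.0976 (Cont replicate 3), while the lowest such values were -0.13 for LAMA2 and -0.25 for LAMB2. ITGA10 fell under quantile normalization and without Cont replicate 1 (-0.61 and -0.41). The cause of these changes was not tested. Genes near 1 FPKM are limited by depth and by the pseudocount.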

Other observations

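Cont replicate 3 lay away from the other Cont libraries in several genes described above, in both directions. It was the highest Cont library for LAMB2, TLN1 and PLEC, the last with 34.4, 36.2 and 35.2 FPKM in the Dox libraries, against 78.0, 80.7 and 120.1 FPKM in the Cont libraries. It was the lowest for LIMS1, ITGB4 and TINAGL1. The calls of TLN1, LIMS1, ITGB4, TINAGL1 and PLEC remained without it, with log2 changes of -0.33, 0.77, -1.64, -3.17 and -1.15.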
